A study of Mus musculus with 2 samples.

Results

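The Ets1 and Runx1 loci were examined for GATA3 binding in mouse CD4+ T cells. Each locus was taken as a fixed mm9 window chosen to hold the gene, chromosome 9 from 32420001 to 32600000 for Ets1 (180 kb) and chromosome 16 from 92570001 to 92860000 for Runx1 (290 kb). The windows make up 900 and 1450 bins of 200 bp, 2350 of the 13209228 bins up to the last read of each chromosome. Reads came from 2 libraries made by chromatin immunoprecipitation with a GATA3 antibody and sequencing. The cells were of the C57BL/6 strain, CD25-negative and CD62L-positive when isolated, and were then stimulated through CD3 and CD28, with either antibody at 1 µg/ml. One library, called the IL-4 library below, is labelled TGF-β plus IL-4, and the protocol gives 2 ng/ml of TGF-β1 and 10 ng/ml of IL-4. The treatment of the other is labelled NA, hence NA library ("no treatment named" in the plots). The culture text is shared by both, and whether the cells of the NA library received TGF-β1 is not given in the sources used here. Each condition has 1 library and no input library was used here, so differences lack a replicate check and carry no p-value. All intervals of ratios are exact at 95% and cover counting error only. No value of a GATA3 library tests the labelled cell type.

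GATA3 is a zinc-finger transcription factor that binds DNA motifs with a GATA core and directs T helper 2 differentiation. Ets1 encodes a member of the ETS family, whose winged helix-turn-helix domain recognises sequences with a GGAA core, and it is abundant in T cells. Runx1 encodes a Runt-domain factor that binds DNA together with its partner CBFβ, recognises TGTGG, and is needed for T cell development. ETS and RUNX motifs are often found beside GATA motifs in the regulatory DNA of T cells. Reads of the GATA3 immunoprecipitation over these windows give candidate places of GATA3 around the genes of its frequent partners. No input library was set beside them. In the RefSeq gene table of GRCm38.p6, the protein-coding neighbours of Ets1 are Fli1, another ETS family gene, and Kirrel3, and those of Runx1 are Clic6 and Setd4.

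The regions before the annotated starts of Runx1 are shown because these letters can be searched for the GATA core. Of the 2 genes, Runx1 matched the RefSeq promoter table by symbol, with 2 entries. The sequences below are the 250 bases before each start, on the minus strand of GRCm38.p6, 5′ to 3′. Start A is chr16:92826075-92826324 and start B is chr16:92697330-92697579 in that build. These positions must not be set against the mm9 positions of the sites below, and no site was placed on them. Capitals mark GATA and TGTGG on either strand.
Runx1 start A: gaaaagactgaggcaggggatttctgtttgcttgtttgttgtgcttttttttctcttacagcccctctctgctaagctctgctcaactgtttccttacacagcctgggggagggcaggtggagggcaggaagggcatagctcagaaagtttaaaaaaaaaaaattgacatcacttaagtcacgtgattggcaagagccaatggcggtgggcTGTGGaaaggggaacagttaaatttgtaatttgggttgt
Runx1 start B: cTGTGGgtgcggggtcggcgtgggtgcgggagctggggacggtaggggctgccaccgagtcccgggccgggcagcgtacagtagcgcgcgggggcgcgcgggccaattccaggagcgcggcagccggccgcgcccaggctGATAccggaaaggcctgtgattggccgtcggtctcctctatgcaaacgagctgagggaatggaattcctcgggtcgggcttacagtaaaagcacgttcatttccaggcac
Start A holds no GATA and 1 TGTGG, at 39 bases before the start. Start B holds 1 GATA, at 110 bases before the start, and 1 TGTGG at 249 bases before it. In the same length of all 32851 promoters of the table, 53.6% hold GATA or its complement TATC and 49.3% hold TGTGG or CCACA. The longer forms AGATAA and TGATAA, which contain GATA, are in neither start, and 9.99% and 7.94% of all promoters hold them on either strand. GGAA or its complement occurs 4 times before start A and 6 times before start B, and 93.4% of all promoters hold it. Start A is 45.6% G and C and start B is 67.6%, around a median of 52.4% over all promoters.

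Both windows were rich in GATA3 reads in both libraries. The libraries held 22963959 reads (NA library) and 15561681 reads (IL-4 library) on chromosomes 1 to 19, X and Y, and counts are given as RPM, reads per 1000000 reads of the library. The Ets1 window held 5478 reads, 239 RPM, in the NA library and 4411 reads, 283 RPM, in the IL-4 library. These values lay above 99.8% of 13418 stretches of the same length laid end to end along the chromosomes, whose median was 63.3 RPM and 61.2 RPM. The Runx1 window held 7515 reads, 327 RPM, and 5737 reads, 369 RPM, above 99.5% and 99.7% of 8362 stretches of its length. The ratio of the IL-4 library over the NA library was 1.19 (1.14 to 1.24) over the whole Ets1 window and 1.13 (1.09 to 1.17) over the whole Runx1 window. Ratios of this size are common, since the middle of the stretches was 1.03 for the length of Ets1, with 90% between 0.788 and 1.39, and 1.04 for that of Runx1, with 90% between 0.801 and 1.36. When the libraries were instead scaled so that peaks called in both had a median ratio of 1, both window ratios turned, to 0.886 and 0.84.

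Reads were concentrated in 30 sites in each window. A site is a stretch in which fragment coverage exceeded its local background at a false discovery rate under 0.01 over the whole genome in at least 1 library, at equal depth, with overlapping stretches of the libraries merged. By the same procedure there were 64417 such union peaks in the genome. The 30 Ets1 sites covered 3.78% of the window and held 31.1% of its reads (Wilson interval 29.9% to 32.4%) in the NA library and 34.6% (33.2% to 36.1%) in the IL-4 library. The 30 Runx1 sites covered 2.33% of their window and held 19.4% (18.5% to 20.3%) and 26.5% (25.4% to 27.7%). Ets1 thus had 16.7 sites per 100 kb and Runx1 10.3, against 2.72 per 100 kb of covered genome. The number of sites was above 99.9% of the stretches of the length of the Ets1 window, with a median of 3, and above 98.5% of those of the length of the Runx1 window, with a median of 5. Sites are numbered below from the start of each window.

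The Ets1 sites formed a dense cluster in the second part of the window. The 60-kb stretch with the most site reads, from 32513851 to 32574000, contained 19 of the 30 sites and 89.2% and 90.2% of all reads in sites. Of the other 11 sites, most of which lay before the cluster, site 6 had the most reads, 45 and 35. Between the sites, too, reads were denser there. From 90 to 120 kb into the window the level outside sites was 1.56 RPM per kb in the NA library and 1.82 RPM per kb in the IL-4 library, and over the first 30 kb it was 0.614 and 0.623. Reads outside sites include the shoulders of tall peaks. The bin with the most reads of both libraries was the same, from 32534201 to 32534400, with 139 reads (6.05 RPM) and 128 reads (8.23 RPM), while the median bin of the window held 3 and 2 reads. In 24 bins of the NA library and 35 of the IL-4 library the level was over 10 times the window median, and 22 of these were shared.

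**Figure D1:**
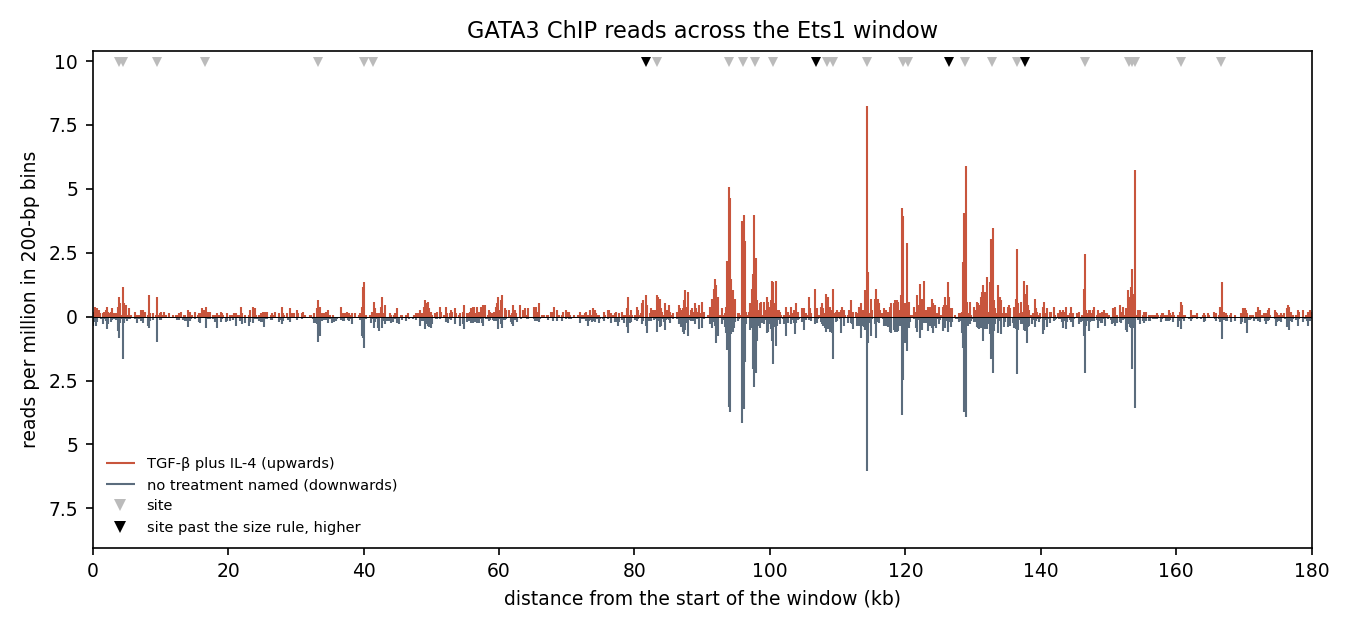
RPM in the 900 bins of 200 bp of the Ets1 window, plotted by distance from its start, for the IL-4 library (upwards) and the NA library (downwards). Triangles mark the 30 sites, black where the ratio was at least 2 with an interval over 1; the tall bins of both libraries fall between 90 and 160 kb and mirror each other.

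The 6 strongest Ets1 sites were the same in both libraries and lay within this cluster. They ranked above 95.1% to 98.2% of all union peaks by mean RPM and held 59.7% and 57.8% of the reads in Ets1 sites. Site 21, from 32548491 to 32548960, had 192 reads (8.36 RPM) in the NA library and 178 reads (11.4 RPM) in the IL-4 library, a ratio of 1.37 (1.11 to 1.69). Site 11, from 32515891 to 32516350, had 213 reads (9.28 RPM) and 160 reads (10.3 RPM), a ratio of 1.11 (0.897 to 1.37). Site 17, from 32534141 to 32534500, had 163 reads (7.1 RPM) and 164 reads (10.5 RPM), a ratio of 1.48 (1.19 to 1.86). All 6 were somewhat higher in the IL-4 library by RPM, and for 3 of them the interval left out 1. In the top 20% of all union peaks by mean RPM, 84.7% of peaks had a ratio over 1. For 57% of the peaks of that class the interval lay over 1. Site 10, from 32513851 to 32514230, gave 7.27 and 9.51 RPM and a ratio of 1.31 (1.04 to 1.64). Site 18, from 32539381 to 32539850, gave 6.97 and 8.55 RPM and a ratio of 1.23 (0.967 to 1.55). Site 12, from 32517541 to 32517900, gave 5.36 and 6.43 RPM and a ratio of 1.2 (0.912 to 1.57). None of the 6 reached a ratio of 2. At site 11 the summit itself was no higher in the IL-4 library. The 200 bp around it held 6.84 RPM in the NA library and 6.43 RPM in the other, a ratio of 0.94. The interval of the whole site included 1, and a difference between its summit and the rest was not tested. Scaled to the median of the peaks called in both libraries, the ratios of sites 10, 11, 12 and 18 fell to 0.975, 0.826, 0.894 and 0.914, those of sites 17 and 21 to 1.11 and 1.02, and 0 of the 6 intervals then lay over 1.

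Of all 30 Ets1 sites, 4 were higher in the IL-4 library and 0 were lower. This size rule asks for an interval that leaves out 1 and a ratio of 2 or more (higher) or of 0.5 or less (lower). Over all 64417 union peaks 25.1% were higher by it and 3.86% lower. The 4 sites were weak ones, with 4 to 11 reads in the NA library and 12 to 22 in the other. All 4 were called in the IL-4 library alone, where 45.6% of such peaks of the genome were higher. Site 24, from 32557511 to 32557620, had 4 reads (0.174 RPM) and 18 reads (1.16 RPM), a ratio of 6.64 (2.19 to 27.0). Site 14, from 32526681 to 32526810, had 4 reads and 17 reads (1.09 RPM), a ratio of 6.27 (2.05 to 25.6). Site 20, from 32546331 to 32546430, had 11 reads (0.479 RPM) and 22 reads (1.41 RPM), a ratio of 2.95 (1.37 to 6.74). Site 8, from 32501641 to 32501740, with 4 and 12 reads, had a ratio of 4.43 (1.34 to 18.8). With so few reads in the NA library, the sizes are uncertain. Subtracting the local background, which takes away nearly all of the 4 reads, raised the ratios of sites 14 and 24 to 31.0 and 48.2, and counting the 200 bp around their summits lowered them to 3.25 and 2.5. When sites were chosen in a random part of the reads and counted in the rest, 16 Ets1 sites were found and 0 of them were higher, against 15.1% of 34153 peaks of the genome treated in the same way. None of the 4 higher sites was among those 16, so this count did not test them.

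The 17 Ets1 sites called in both libraries had a median ratio of 1.22, with a range of 0.562 to 1.76, and 0 of them were higher, against 13.2% of all 25674 peaks called in both, whose median was 1.34. The lowest ratios of the window were those of site 5, from 32453181 to 32453330, with 21 reads against 8, a ratio of 0.562 (0.215 to 1.32), and site 2, from 32424441 to 32424600, with 38 reads against 16, a ratio of 0.621 (0.323 to 1.14). Both lie outside the cluster and neither interval left out 1. With scaling to the shared peaks these 2 passed the size rule as lower, at 0.419 and 0.463, as did 8.64% of all union peaks, and 4 sites stayed higher, as did 11.5%. Sites 2 and 5 were chosen after their values were seen.

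**Figure D2:**
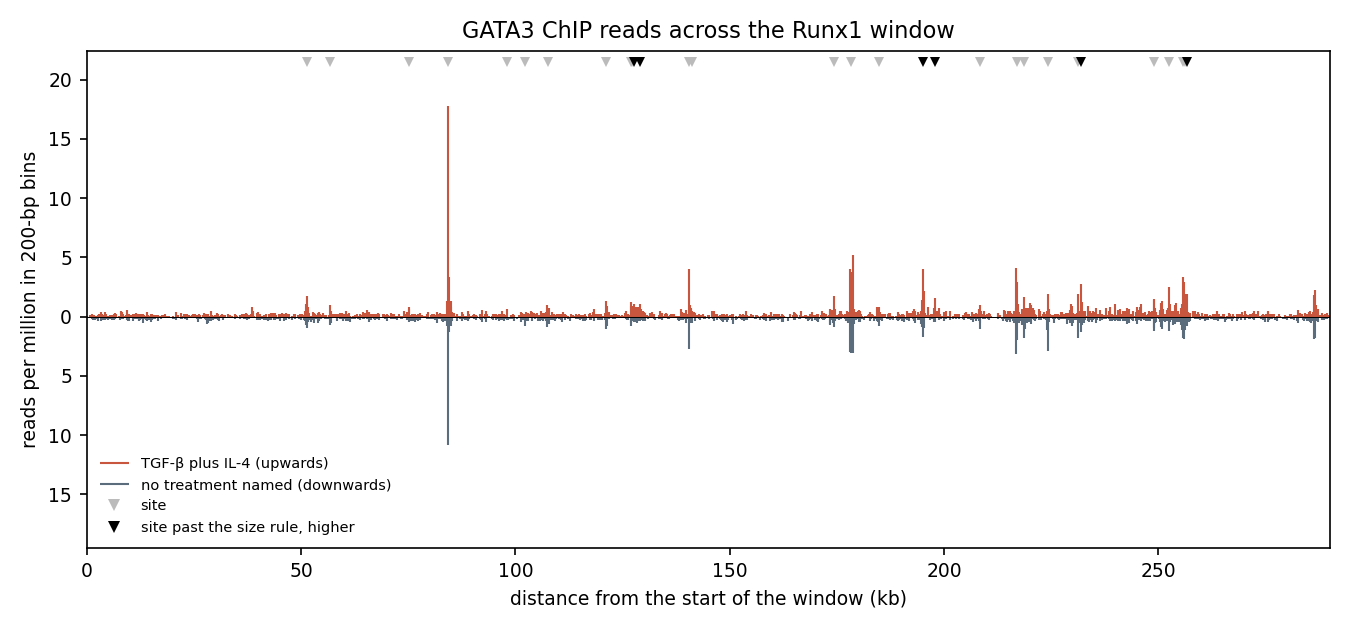
RPM in the 1450 bins of 200 bp of the Runx1 window, drawn as for Ets1, with its 30 sites as triangles. One bin, in site 4, stands above all others with 10.8 RPM (NA library, downwards) and 17.7 RPM (IL-4 library, upwards), and the other sites are spread from 50 to 260 kb.

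The Runx1 window was led by a single tall site and had no dense cluster like that of Ets1. Site 4, from 92654131 to 92654530, had 290 reads (12.6 RPM) in the NA library and 338 reads (21.7 RPM) in the IL-4 library, a ratio of 1.72 (1.47 to 2.02). Its mean RPM was 13.3 times that of the median Runx1 site and above 99.6% of all union peaks. It stood alone: the summits of the nearest sites lay 9240 bp before and 13790 bp after its own, and the flanks from 500 to 1500 bp on both sides of its summit held 0.344 and 0.36 RPM per 200 bp, against 10.5 and 18.2 RPM in the 200 bp around the summit. The best 60-kb stretch of the window, from 92744231 to 92802090, contained 11 sites with 49.4% and 44.9% of the reads in Runx1 sites. In site 4 reads filled 36.2% and 42.2% of all positions on either strand, where the files hold at most 1 read per position and strand; the part of this limit in the ratio was not tested.

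**Figure D3:**
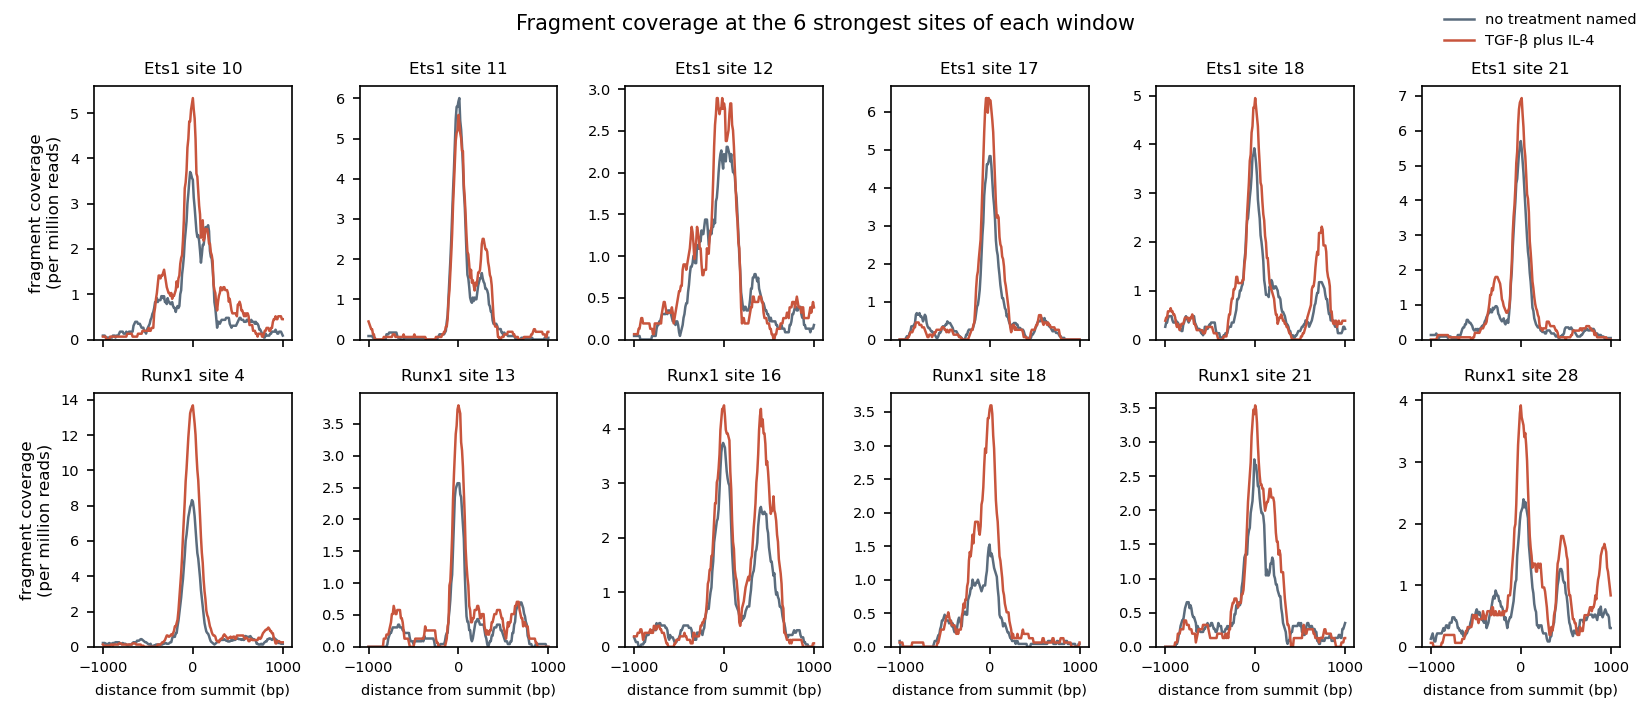
Fragment coverage per 1000000 reads within 1000 bp of the summit at the 6 strongest sites of each window, for the NA library (grey) and the IL-4 library (red); the vertical scales differ. The summits of the 2 libraries lie 10 to 110 bp apart at Ets1 and 10 to 30 bp at Runx1, Ets1 site 11 is about as tall in both, and Runx1 site 16 has 2 maxima.

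At the other sites among the 6 strongest of Runx1 the IL-4 library was also higher by RPM. The same held for 84.7% of the top 20% of all union peaks by mean RPM, whose median ratio was 1.5. Site 16, from 92748021 to 92748850, had 260 reads (11.3 RPM) and 253 reads (16.3 RPM), a ratio of 1.44 (1.2 to 1.71). It was the widest site of both windows at 830 bp, with 2 maxima 420 bp apart. In the 200 bp around the earlier maximum the ratio was 1.19 (0.888 to 1.58), from 4.88 and 5.78 RPM. Around the later one it was 1.46 (1.05 to 2.01), from 3.48 and 5.08 RPM. The later over the earlier ratio was 1.23 (0.793 to 1.9), so a difference between the maxima was not detectable at this depth. Site 21, from 92786801 to 92787270, gave 5.49 and 7.78 RPM and a ratio of 1.42 (1.1 to 1.83). Site 28, from 92825671 to 92826010, gave 3.48 and 6.23 RPM and a ratio of 1.79 (1.32 to 2.44). Site 13, from 92710441 to 92710660, gave 2.92 and 4.37 RPM and a ratio of 1.5 (1.05 to 2.13). Site 18, from 92764921 to 92765320, rose from 71 reads (3.09 RPM) to 106 reads (6.81 RPM), a ratio of 2.2 (1.62 to 3.02), and was the only one of the 6 strongest sites of either window to pass the size rule. All 6 intervals left out 1, where 57% of the top 20% of all union peaks had an interval over 1. Over all 30 sites 13 intervals lay over 1, against 34.1% of all union peaks and 10 of the 30 at Ets1. After scaling to the shared peaks the 6 ratios ranged down to 1.06 for site 21 and 1.07 for site 16, and those of sites 4, 18 and 28 were 1.28, 1.64 and 1.33. Only the intervals of sites 4 (1.09 to 1.51) and 18 (1.2 to 2.25) then still left out 1.

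Of the 30 Runx1 sites, 6 were higher in the IL-4 library and 0 lower, near the 25.1% of all union peaks that were higher. Of the 6, sites 11, 12, 19 and 30 were called in the IL-4 library alone, where 45.6% of peaks were higher. The 6 included weak and strong sites, from 7 to 71 reads in the NA library and from 16 to 106 in the other. Site 11, from 92697531 to 92697690, had 8 reads (0.348 RPM) and 21 reads (1.35 RPM), a ratio of 3.87 (1.65 to 10.1). Site 30, from 92826631 to 92826760, had 13 reads (0.566 RPM) and 25 reads (1.61 RPM), a ratio of 2.84 (1.4 to 6.04). The others were site 12 with 3.37 (1.31 to 9.7), site 19 with 3.32 (1.37 to 8.82) and site 25 with 2.11 (1.36 to 3.31). With scaling to the shared peaks 3 sites were higher (11, 19 and 30) and 1 lower (site 6, with 14 reads against 3). When chosen in part of the reads and counted in the rest, 1 of 17 sites was higher, against the 15.1% of the genome given above. It lay from 92801901 to 92802080, within site 25, with a ratio of 2.22 (1.2 to 4.13). Parts of sites 11 and 18 were also among the 17 and did not pass the size rule. Their ratios were 1.95 (0.449 to 8.48) and 1.82 (1.17 to 2.84). Sites 12, 19 and 30 were not among the 17, so this count did not test them.

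In 2 places 3 or more Runx1 sites followed each other closely. Sites 9 to 12, from 92696891 to 92699100, were 4 low sites, each called in the IL-4 library alone, a class in which 98.4% of all peaks of the genome had a ratio over 1. Together they held 34 reads (1.48 RPM) and 63 reads (4.05 RPM). All reads of this stretch of 2210 bp, sites or not, numbered 106 (4.62 RPM) and 145 (9.32 RPM), a ratio of 2.02 (1.56 to 2.62). Sites 28 to 30, from 92825671 to 92826760, held 120 reads (5.23 RPM) and 150 reads (9.64 RPM), a ratio of 1.84 (1.44 to 2.37). These runs were chosen after their values were seen.

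Site 23, from 92794081 to 92794450, went the other way among the stronger Runx1 sites. It had 86 reads (3.75 RPM) in the NA library and 40 reads (2.57 RPM) in the IL-4 library, a ratio of 0.686 (0.459 to 1.01). Its interval just included 1, and with scaling to the shared peaks the ratio was 0.512 and the interval, 0.342 to 0.753, left out 1. Its mean RPM was above 88.3% of all union peaks while its ratio was above only 14.6% of theirs. It was singled out after its value was seen.

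**Figure D4:**
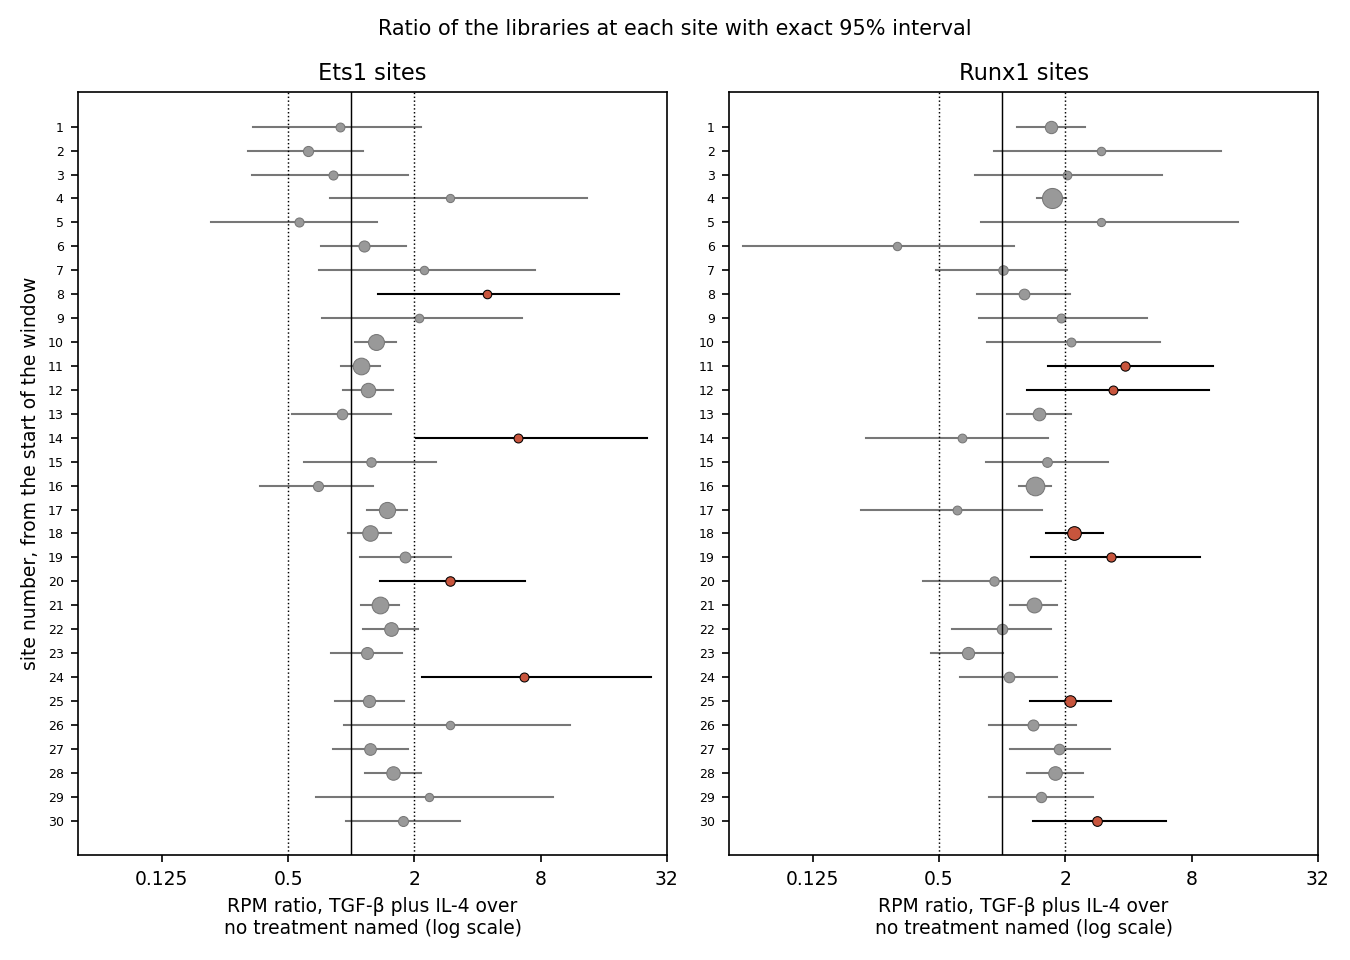
RPM ratio of the IL-4 library over the NA library (log scale) at the 30 Ets1 and 30 Runx1 sites in order along each window, with exact 95% intervals for counting error; larger points have more RPM, red marks sites past the size rule, and the dotted lines are ratios of 0.5 and 2. The 12 Ets1 points over 2.05 RPM lie between 1.11 and 1.58, and the 9 Runx1 points over it between 0.686 and 2.2.

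Over the summed reads in sites, the libraries stood further apart at Runx1 than at Ets1. Over all reads in sites the ratio was 1.32 (1.23 to 1.42) at Ets1, from 74.3 and 98.2 RPM, and 1.54 (1.44 to 1.66) at Runx1, from 63.4 and 97.9 RPM. The Runx1 ratio was 1.17 times the Ets1 ratio (exact conditional 95% interval 1.06 to 1.29), and 1.13 times (1.02 to 1.26) without Runx1 site 4. This quotient is the same under every scaling of the libraries. Its interval pools the reads and leaves out the spread between sites. The sums include 12 sites in each window called in the IL-4 library alone, with median ratios of 2.66 (Ets1) and 2.48 (Runx1). Such sites were picked where that library was high. The 17 Ets1 and 15 Runx1 sites called in both libraries had median ratios of 1.22 and 1.42, and no quotient was computed for them. The ratios of single sites ran from 0.562 to 6.64 at Ets1 and from 0.316 to 3.87 at Runx1. Whether the loci differ beyond that spread was not tested. Over all union peaks of the genome the ratio was 1.47. Outside sites the order was the opposite, with 1.13 (1.07 to 1.18) at Ets1 and 1.03 (0.987 to 1.07) at Runx1, where the genome outside peaks gave 0.956. Sites therefore exceeded their own surroundings in ratio by 1.17 times (1.08 to 1.28) at Ets1 and by 1.5 times (1.38 to 1.63) at Runx1. The genome had the same order, with 1.47 in peaks and 0.956 outside. Sites were called in the same reads, and only 1 (Ets1) and 3 (Runx1) were called in the NA library alone. Of all peaks called in the IL-4 library alone, 98.4% had a ratio over 1, so these excesses do not test the condition. All union peaks together held 8.49% of the reads of the NA library and 12.5% of those of the IL-4 library. Whether the immunoprecipitation enriched alike in the single libraries was not tested. In chromatin from many cells, a larger share of cells with GATA3 at a site and more GATA3 per cell cannot be told apart either.

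The strong sites gave a similar difference between the loci, but they held most of the same reads and are not separate support. In the NA library they held 1418 of 1706 site reads at Ets1 and 1073 of 1456 at Runx1. In the top 20% of all union peaks by mean RPM, over 2.05 RPM, there were 12 Ets1 and 9 Runx1 sites. The 12 Ets1 sites had ratios from 1.11 to 1.58 with a median of 1.23, and 0 were higher, where 20.1% of all 12890 peaks of that class were higher and their median was 1.5. For 5 of the 12 the interval lay over 1, against 57% of the class. The 9 Runx1 sites had ratios from 0.686 to 2.2 with a median of 1.71, 2 were higher (sites 18 and 25), and for 8 of them the interval lay over 1. Summed, the ratio was 1.3 (1.21 to 1.41) for the strong Ets1 sites and 1.57 (1.44 to 1.71) for the strong Runx1 sites, against 1.48 for the class. The quotient of the 2 loci was 1.21 (1.08 to 1.35), and 1.16 (1.02 to 1.32) without Runx1 site 4.

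**Figure D5:**
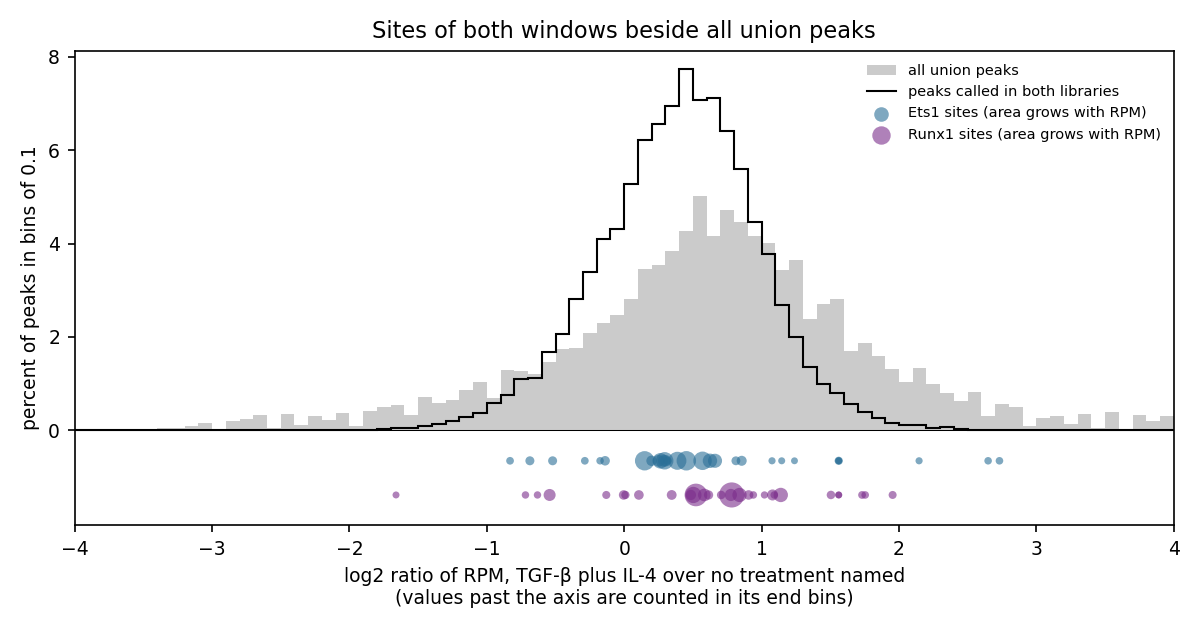
Distribution of the log2 RPM ratio (IL-4 library over NA library) over all 64417 union peaks (grey) and the 25674 peaks called in both libraries (black line), in percent of each set, with the Ets1 and Runx1 sites as points below. The 12 Ets1 sites of the top 20% have a median ratio of 1.23 and the 9 of Runx1 one of 1.71; the grey distribution has its median log2 ratio at 0.66.

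Among the strongest sites the position of the summits was close in both libraries. At the 6 strongest sites of each window the summits of the libraries lay 10 to 110 bp apart at Ets1, with the largest gap at site 12, and 10 to 30 bp at Runx1. Summits were sought within the merged site, which bounds the gap. Of the 30 sites of each window, 17 (Ets1) and 15 (Runx1) were called in both libraries. Of the 6 sites with the most reads in each library, all 6 were shared at Ets1 and 5 at Runx1. Across the bins the RPM of the libraries had a Pearson correlation of 0.93 over 900 bins at Ets1 and 0.927 over 1450 bins at Runx1, which the tall bins carry, and Spearman values of 0.683 and 0.554; neighbouring bins share sites, and the libraries share the mappability of each bin. The median distance between reads of the forward and reverse strand at sites was 134.5 and 130 bp at Ets1 and 130.5 and 122 bp at Runx1, near the fragment length. Single sites departed from this, with 36.5 bp (NA library) and 127 bp (IL-4 library) at Runx1 site 18. At Runx1 site 21 the distances were 124 bp and 253 bp. The median share of reads with the top mapping quality at sites was between 96.1% and 99.0% in both windows and libraries, against 87.8% and 88.3% in the whole libraries.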

How the data were processed

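The data are 2 GATA3 ChIP-seq libraries from mouse CD4+ T cells, deposited as 1 line per aligned read of 25 bases. Per the submitters' processing notes, CASAVA 1.0 and Bowtie2 were used, in roles not given, with the build mm9. The mapping quality is a score that the authors deposited with each read (11 to 42). The file names state a mapping quality filter and removal of duplicates, and 0 reads shared a position and strand within a library.

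All counts were made here. The fragment centre was the 5′ end shifted 63 bp inwards. Coverage of fragments of 126 bp was compared every 10 bp with a Poisson rate, the larger of the genome rate (2368873000 bp of 1-kb bins with a read) and that of the surrounding 10 kb. Where the Benjamini-Hochberg q was under 0.01, positions were merged across gaps of 100 bp. Stretches shorter than 100 bp, or with under 20% of their reads on either strand, were left out. Calling used 15561681 reads per library, which gave 36727 peaks (NA library) and 53800 (IL-4 library), and counting used all reads. Ratios carry Clopper-Pearson intervals and shares Wilson intervals. With at most 1 read per position and strand in the files, separate molecules with the same 5′ end count as 1. Stretches of equal length were used where reads fell in at least 80% of their 1-kb bins on chromosomes 1 to 19 and X.

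The windows, lists and rules were chosen with earlier results of these data known. Named sites were the 6 with the highest mean RPM in each window, then up to 3 with the highest and 3 with the lowest ratio among sites past the rule of size, by the bound nearest to 1. Others are said in the text to be chosen after seeing values, apart from Ets1 site 8 and Runx1 sites 12, 19 and 25, which complete the small counts past the rule. Alternatives were a q of 1e-05, calling at full depth, another thinning, a 5-kb rate, fragments of 200 bp, no strand rule, other scalings, top mapping quality only, a shift of 100 bp, subtraction of local background, a ratio of 1.5, bins of 400 bp, and sites called from 7780840 reads per library with the remaining reads counted. Placement against transcripts, motifs at sites and other ETS and RUNX family genes needed an mm9 annotation and sequence and were not analysed here. The caller and the size rule were tested on simulated data. Python 3.11.15, numpy 2.4.6, scipy 1.17.1, pandas 2.3.3 and matplotlib 3.10.9 were used.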

Additional observations from a re-analysis of the deposited data

How the results depend on the processing

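With scaling by reads outside peaks the window ratios were 1.24 (Ets1) and 1.18 (Runx1), and with scaling to the median of shared peaks they turned to 0.886 and 0.84, with 2 lower sites at Ets1, 3 higher and 1 lower at Runx1. At a q of 1e-05 the sites called fell to 14 (Ets1, IL-4 library), 11 (Runx1, NA library) and 12 (Runx1, IL-4 library), the higher sites to 1 of 16 and 2 of 12, and the share of reads in sites to 23.1% and 25.2% at Ets1 and 13.7% and 18.8% at Runx1. A ratio of 1.5 gave 7 higher sites at Ets1 and 10 at Runx1. For this ratio and for the q of 1e-05 the share of all union peaks that were higher is not given here. Whether these counts are above or below that of the genome is therefore left unsaid. Sites chosen in part of the reads and counted in the rest gave 0 of 16 and 1 of 17 higher, but most of the higher sites above were not among them. A second thinning gave 1 lower site at Runx1. The cause of these changes was not tested, beyond the smaller number of sites or reads in the stricter settings. The other 47 values of window ratios, numbers of sites and shares stayed within the interval or within 1.5 times, as did 73 values of the ratios of named sites. Another 12 of these ratios moved further, 9 of them with scaling to the shared peaks, as did 4 counts of tall bins with bins of 400 bp. None of the ratios of the named sites past the size rule changed direction. Depth limits the weak sites: with 4 reads in a library an interval spans over 10-fold. No paired analysis was possible because each condition has 1 library, and for the same reason no library could be left out.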

Other observations

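One region of the Runx1 window was left out of the sites because its reads lay mostly on one strand. This region, from 92856311 to 92856820, had 83 reads (3.61 RPM) in the NA library and 74 reads (4.76 RPM) in the IL-4 library, a ratio of 1.32 (0.949 to 1.82). Only 13.3% and 13.5% of its reads were on the forward strand, and 80.7% and 86.5% had the top mapping quality.

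Reads outside sites, which include shoulders of tall peaks, varied along the windows in steps of 30 kb. At Ets1 the ratio of the libraries ranged from 0.923 (0.792 to 1.07) in the last step to 1.32 (1.16 to 1.5) in the step from 60 to 90 kb, which lies just before the cluster of strong sites and holds sites 8 and 9. At Runx1 it ranged from 0.771 (0.665 to 0.893) in the first step, which holds no site, to 1.21 (1.06 to 1.39) from 120 to 150 kb, the step with sites 8 to 14.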
